A study of Mus musculus with 9 samples.

Results

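Of the 9 RNA-seq libraries of this series, 3 have a column name in the deposited count table that holds the word NSG, and the other 6 have a name that holds a date. All come from cells of Panc02, an established mouse line of pancreatic ductal carcinoma, and each of 3 lines of it gave 1 NSG-named and 2 dated libraries. The parental line is labelled wild type. KO_1E7 is a single CRISPR clone labelled as a knockout of VPAC2, a receptor for the neuropeptide VIP that the gene Vipr2 encodes. CRISPR_1G2 is a single clone labelled CRISPR-wild type, although the text on the series' design places it, like KO_1E7, among clones of CRISPR-KO cells. The NSG-named library is replicate 3 of its line, so it is called parental 3, KO_1E7 3 or CRISPR_1G2 3 here, and the dated libraries are replicates 1 and 2. The labels do not say what NSG stands for. Every library is labelled as untreated, from frozen pellets of cells kept in the same serum-containing medium, and no label says that replicates were separate cultures, so each p-value measures the spread between these libraries, which may be technical. Parental 1 and KO_1E7 1 share a date and parental 2 and CRISPR_1G2 1 share another, while no NSG-named library carries one. A difference between the name classes therefore cannot be told apart from a difference in day or handling.

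The gene groups described below belong to well-known circuits. The transcription factor p53 is stabilised by DNA damage and other stresses and switches on genes for cell cycle arrest and cell death, among them its own inhibitor Mdm2. SREBP transcription factors switch on sterol and fatty acid synthesis when membranes run low on sterol. NF-kappaB is held inactive by inhibitor proteins such as the product of Nfkbia, and once released it induces chemokine genes and those same inhibitors. In pancreatic ductal carcinoma, glycolysis, hypoxia and inflammatory programmes are much studied because the tumours are dense and poorly perfused.

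Gene counts per library ran from 27898705 to 51878289, and 14111 to 16179 genes had at least 10 counts. Parental 3 stood apart in its RNA classes, as described with the histone and small structural RNAs, and had the lowest spike-in share, 0.344% against 0.528% to 0.820%. Ribosomal RNA related transcripts took 16.6% of its gene counts, against 0.554% to 1.15% in the other 8 libraries. Spike-in control RNA took a mean of 0.492% of counts in the NSG-named libraries and 0.680% in the dated ones, lower in all 3 lines (exact permutation test within lines, two-sided, p = 0.037, the smallest that 27 arrangements allow, adjusted p = 0.148 over 4 measures). Scaling to those controls instead of to the bulk of genes raised the median log2 fold change of all genes from near 0 to 0.48 over the 3 lines, 0.672 within parental, 0.275 within KO_1E7 and 0.437 within CRISPR_1G2, so every change below is relative to the bulk of genes. Summed levels of 10 pancreatic duct markers were 1546 to 5457 CPM (counts scaled to library size with TMM factors) in all libraries, and 10 islet markers had no member that passed the expression filter. Vipr2 itself was close to absent: its counts were 6, 3 and 12 in parental 1 to 3, then 1, 2 and 1 in KO_1E7 and 1, 13 and 12 in CRISPR_1G2, too few to compare the name classes. These counts lie at any position of the gene and so do not check the deletion.

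**Figure D1:**
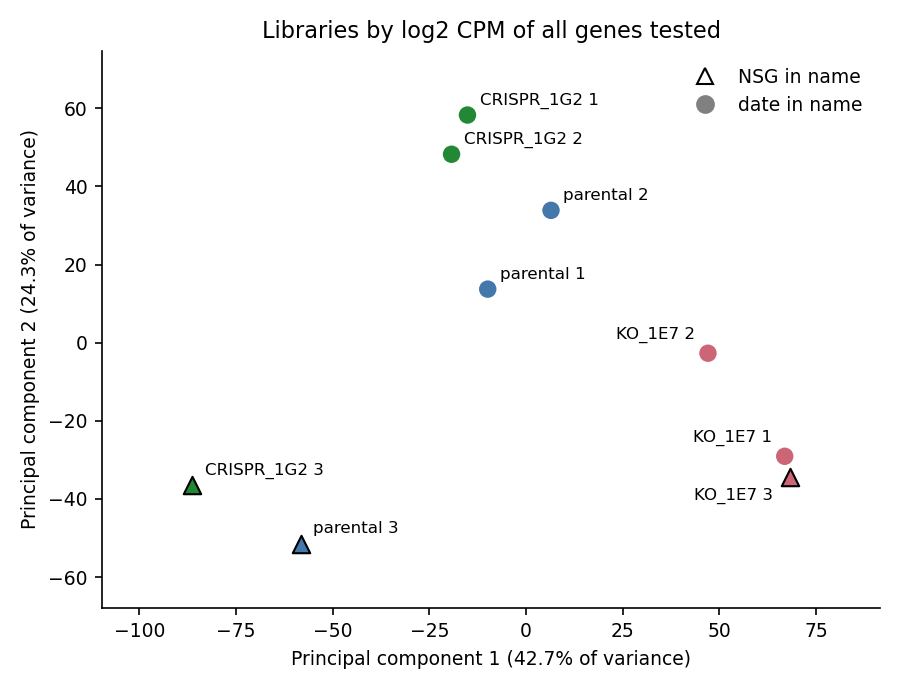
Each point is 1 library, placed by the first and second principal components of log2 CPM over all genes tested, in arbitrary units, coloured by line, with triangles for NSG-named and circles for dated libraries. Parental 3 and CRISPR_1G2 3 lie at -58.2 and -86.3 on the first axis, away from the dated libraries of their lines, whereas KO_1E7 3 at 68.3 lies beside KO_1E7 1 at 66.9.

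KO_1E7 3 resembled the dated libraries of its line, and the other NSG-named libraries did not. The typical log2 ratio between parental 3 and a dated parental library, taken as the median absolute deviation over genes, was 0.599 and 0.739, against 0.31 between the dated parental libraries. CRISPR_1G2 3 differed from its dated libraries by 0.826 and 0.802, against 0.182 between those. KO_1E7 3 differed by 0.254 and 0.335, against 0.374 between the dated KO_1E7 libraries, which is within their own spread. Across all genes tested, CRISPR_1G2 3 had its highest correlation with parental 3 (Pearson r of log2 CPM 0.967), above its own dated libraries at 0.952 and 0.955, a description over genes that are not independent replicates.

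Over all 3 lines, with the line as a block, edgeR's quasi-likelihood test called 0 of 15766 genes (0%) between NSG-named and dated libraries at an adjusted p below 0.05, and the lowest adjusted p was 0.0772. At an unadjusted p below 0.05 it found 5246 genes (33.3%), 2520 higher (16%) and 2726 lower (17.3%), and DESeq2 called 3048 at its adjusted threshold. Without KO_1E7 3 the edgeR count was 6065, without KO_1E7 1 it was 793, without the whole KO_1E7 line 6540, and without any other library 0. Under spike-in scaling it was 6536, of which 98.4% were higher. In 1418 genes (8.99%) the NSG-named library lay above both dated libraries of its line in all 3 lines, and in 1714 genes (10.9%) it lay below both.

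From these, a few genes with low p are described, in which KO_1E7 3 was displaced like the other NSG-named libraries. They were chosen after their values were seen, and none is called. Olfml2b, which encodes an olfactomedin-like matrix protein, stood at 10.2 and 13.8 CPM in the dated parental libraries and 3.14 CPM in parental 3. In KO_1E7 it stood at 30.4 and 23.5 against 7.55 CPM, and in CRISPR_1G2 at 5.92 and 8.23 against 2.35 CPM. Its log2 fold change over the 3 lines was -1.79 ± 0.19 (SE, adjusted p = 0.0772), and all 3 NSG-named libraries lay below both dated ones.

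Single genes of iron handling and of the hypoxia response were among them. Of 14 iron uptake and storage genes, 4 lay below both dated libraries in all 3 lines and 3 lay above, so the list as a whole had no single direction. Tfrc, the transferrin receptor that brings iron into cells, had 486, 620 and then 178 CPM in parental 1 to 3, 342, 386 and 200 CPM in KO_1E7, and 797, 749 and 280 CPM in CRISPR_1G2 (log2 fold change -1.31 ± 0.17, adjusted p = 0.0772). Steap3, a reductase that acts on iron in endosomes, had a log2 fold change of -1.18 ± 0.16 (adjusted p = 0.0772). Car9, the hypoxia-induced carbonic anhydrase, stood at 37.6, 54.6 and 9.20 CPM in parental, at 61.4, 134 and 28.3 CPM in KO_1E7 and at 34.8, 47.3 and 5.59 CPM in CRISPR_1G2 (-2.29 ± 0.32, adjusted p = 0.0772). Car9 was thus lowest in the NSG-named library of each line, by a margin wider than the gap between the dated ones in parental and CRISPR_1G2. Egln3, an oxygen-sensing prolyl hydroxylase that is itself hypoxia-induced, had -2.11 ± 0.35, and the basement membrane collagens Col4a1 and Col4a2 had -1.22 ± 0.17 and -1.22 ± 0.20. Of the 33 glycolysis and hypoxia genes, 18 lay below both dated libraries in all 3 lines, against 10.9% of all genes. In the other direction, the neutrophil-attracting chemokine genes Cxcl3 and Cxcl5 had 3.06 ± 0.51 and 2.68 ± 0.57, the cytidine deaminase gene Apobec1 had 0.85 ± 0.14, and the integrin gene Itga2b had 2.02 ± 0.33 (adjusted p = 0.0772 for each). Cxcl5 stood at 4.52, 0.455 and 19.1 CPM in KO_1E7 1 to 3, so the dated libraries of that line differed from each other about as widely.

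Within single lines, where 1 NSG-named library is set against 2 dated ones and is assumed to vary as they do, the 3 lines gave very different counts. Parental 3 differed in 2753 genes (17.5%), 1049 higher (6.65%) and 1704 lower (10.8%). CRISPR_1G2 3 differed in 4649 genes (29.5%), 2294 higher (14.6%) and 2355 lower (14.9%). For KO_1E7 3, edgeR called 0 genes (0%), with 493 (3.13%) at an unadjusted p below 0.05, DESeq2 called 8, and edgeR called 116 without KO_1E7 1. The parental count fell to 891 without parental 2, and to 718 and 724 without CRISPR_1G2 1 and CRISPR_1G2 2, which enter through the shared estimate of spread. The CRISPR_1G2 count fell to 1294 and 1562 without those same libraries. Under spike-in scaling the calls were mostly higher, 97.2% of 5696 in parental and 85.6% of 4821 in CRISPR_1G2.

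Parental 3 and CRISPR_1G2 3 differed from their own dated libraries largely in the same genes. Higher in both were 791 genes (5.02% of those tested), which is 75.4% of the parental calls and 34.5% of the CRISPR_1G2 calls. Lower in both were 1406 (8.92%), or 82.5% and 59.7% of the calls. Only 35 genes (0.222%) were called in opposite directions. The 2 contrasts share no library, though they share the estimate of spread.

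**Figure D2:**
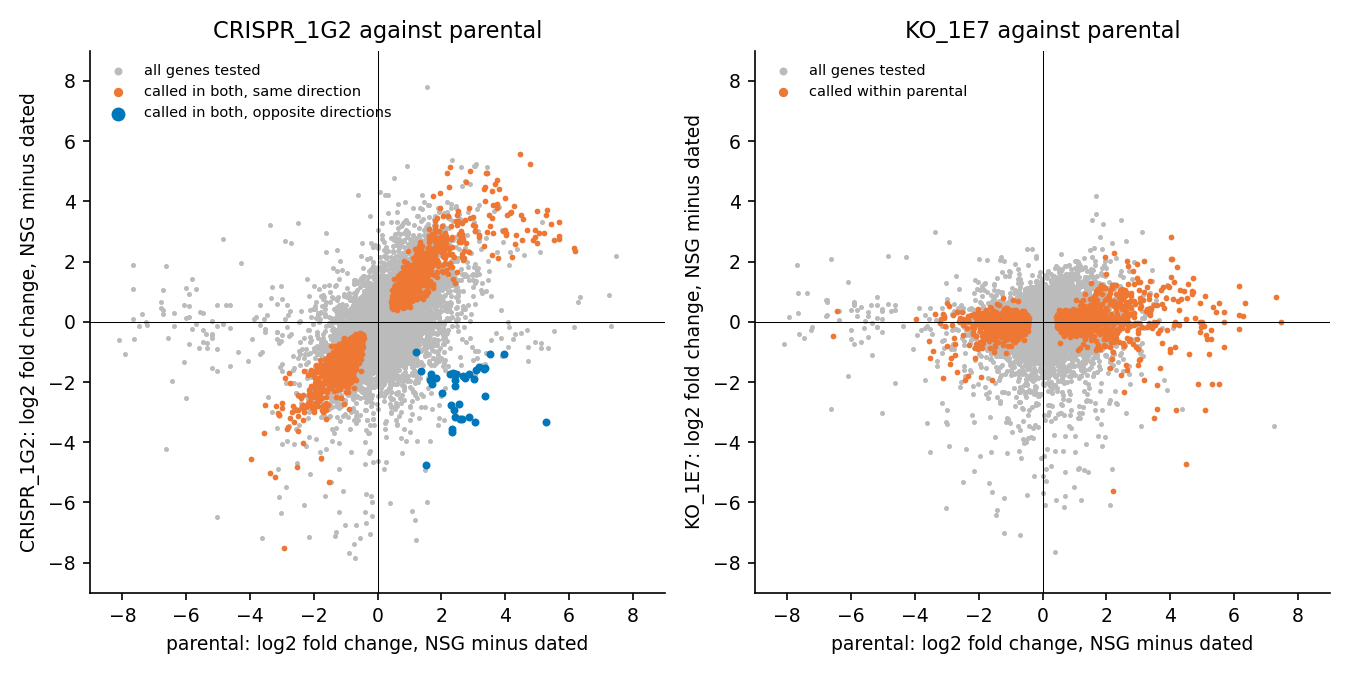
Both panels plot, for each gene tested, the log2 fold change of the NSG-named against the dated libraries, with parental on the horizontal axis and CRISPR_1G2 (left) or KO_1E7 (right) on the vertical axis; 1 gene lies outside the axes. On the left, 791 and 1406 genes called in both lines lie in the upper right and lower left and 35 in the lower right; on the right, genes called within parental spread along the horizontal axis at KO_1E7 values near 0.

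The 3 differences were not all equal in 745 genes (4.73%, F-test). The question whether KO_1E7 departs from the other lines was raised with results of these data known, so that contrast was not set in advance. The KO_1E7 difference departed from the mean of the other 2 in 1751 genes (11.1%), higher in 1097 (6.96%) and lower in 654 (4.15%). That count was 2 without CRISPR_1G2 1, 2 without CRISPR_1G2 2 and 2881 without KO_1E7 1. Under spike-in scaling it was 578, of which 28.4% were higher. Without CRISPR_1G2 3 the contrast becomes a different one, KO_1E7 against parental alone, which called 103 genes. The F-test called 0 without CRISPR_1G2 1 or CRISPR_1G2 2 and 1937 and 1384 without KO_1E7 1 and KO_1E7 2. The lists below were chosen with earlier results of these data known, the genes given from them were in part chosen after their values were seen, and each list is described by counts and medians set beside those of all genes, whose median log2 fold change was -0.02 in parental, -0.01 in KO_1E7 and -0.01 in CRISPR_1G2.

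**Figure D3:**
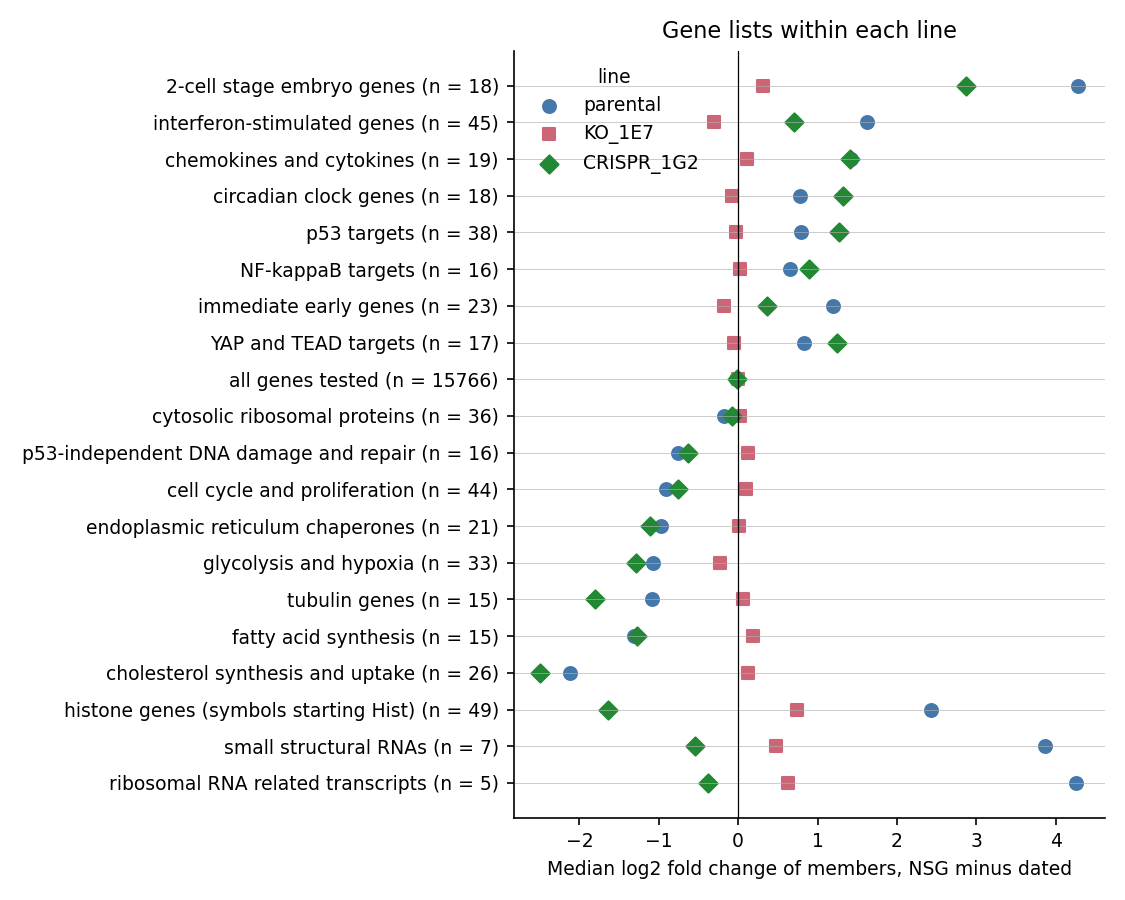
Each point is the median log2 fold change, NSG-named minus dated, over the tested members of a gene list within 1 line, with the number of members beside the name. Parental and CRISPR_1G2 lie on the same side of 0 for all but the 3 lists at the bottom and KO_1E7 stays within 0.74 of 0 for every list; 4 members of the 2-cell list passed the filter only with the NSG-named libraries counted.

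Targets of p53 were higher in parental 3 and CRISPR_1G2 3. Of 38 tested targets, 18 rose in parental (47.4%, against 6.65% of all genes) and 1 fell, and 27 rose in CRISPR_1G2 (71.1%, against 14.6%), while 0 were called in KO_1E7. All 18 that rose in parental also rose in CRISPR_1G2, and the median log2 fold changes were 0.79 in parental, 1.27 in CRISPR_1G2 and -0.02 in KO_1E7. Cdkn1a, which encodes the cell cycle inhibitor p21, stood at 43.2 and 31.8 CPM in the dated parental libraries and 189 CPM in parental 3. In CRISPR_1G2 it stood at 64.6 and 72.9 against 480 CPM, and in KO_1E7 at 40.5 and 44.2 against 34.1 CPM. Cdkn1a was thus far above both dated libraries in 2 lines and below them in KO_1E7. It rose by 2.33 ± 0.19 on the log2 scale in parental (adjusted p = 0.00316) and by 2.80 ± 0.19 in CRISPR_1G2 (adjusted p = 0.000914).

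The death receptor gene Fas was nearly silent in the dated libraries, at 0.437 and 0.193 CPM in parental and 0.363 and 0.347 CPM in CRISPR_1G2. It reached 6.95 CPM in parental 3 and 17.2 CPM in CRISPR_1G2 3, and 0.686 CPM in KO_1E7 3 against 0.424 and 0.265 CPM. Fas rose by 4.45 ± 0.45 (adjusted p = 0.00686) and 5.59 ± 0.46 (adjusted p = 0.00125). Bbc3, which encodes the death inducer PUMA, went from 18.3 and 10.5 to 80.6 CPM and from 9.99 and 11.9 to 127 CPM, with 7.49, 9.46 and 7.40 CPM in KO_1E7 1 to 3. Mdm2, the inhibitor of p53, went from 792 and 646 to 1857 CPM in parental and from 872 and 1173 to 3910 CPM in CRISPR_1G2. Both rose in both lines, Bbc3 by 2.48 ± 0.31 and 3.53 ± 0.32 (adjusted p = 0.00906 and 0.00181) and Mdm2 by 1.37 ± 0.20 and 1.93 ± 0.20 (adjusted p = 0.0105 and 0.0019). The antiproliferative gene Btg2, the cyclin G gene Ccng1 and the kinase gene Plk2 rose as well, by 2.98 ± 0.30, 1.10 ± 0.17 and 3.58 ± 0.52 in parental and 3.21 ± 0.30, 1.79 ± 0.17 and 4.35 ± 0.53 in CRISPR_1G2. The member that fell in parental was Tigar, which encodes a regulator of glycolysis, at 36.6, 38 and 25.1 CPM in parental 1 to 3 (fell by 0.57 ± 0.14, adjusted p = 0.0368), and it had 0.12 under spike-in scaling. Trp53, which encodes p53 itself, was level at 223 to 226 CPM in the dated parental libraries and 191 CPM in parental 3, and at 222, 216 and 229 CPM in CRISPR_1G2. The KO_1E7 difference was lower than the mean of the other 2 for 17 of the 38 targets (4.15% of all genes) and higher for 0. The count of higher targets was 12 in parental without parental 2, 17 in CRISPR_1G2 without CRISPR_1G2 1, and 30 in parental under spike-in scaling.

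Proliferation genes moved the other way. Of 44 cell cycle genes, 32 fell in parental (72.7%, against 10.8% of all genes) and 25 in CRISPR_1G2 (56.8%, against 14.9%), 24 of them in both, and 0 rose. Median log2 fold changes were -0.91, -0.76 and, in KO_1E7, 0.10. Mybl2, a transcription factor gene of the S and G2 phases, stood at 141 and 140 CPM in the dated parental libraries and 57.8 CPM in parental 3, at 165 and 142 against 55.1 CPM in CRISPR_1G2, and at 97.3 and 79.5 against 91.5 CPM in KO_1E7. Mybl2 fell by 1.28 ± 0.18 (adjusted p = 0.00907) and by 1.48 ± 0.18 (adjusted p = 0.00258). Birc5, which encodes survivin, fell by 1.11 ± 0.18 and 1.16 ± 0.18, and Top2a, the topoisomerase gene of dividing cells, by 1.00 ± 0.20 and 1.04 ± 0.20 (adjusted p = 0.0186 and 0.00942). Mki67, the common proliferation marker, fell less, by 0.68 ± 0.18 and 0.63 ± 0.18 (adjusted p = 0.0438 and 0.0383), with 416 and 552 against 303 CPM in parental and 605 and 594 against 387 CPM in CRISPR_1G2. Of 16 genes of DNA damage repair outside the p53 list, 10 fell in parental and 9 in CRISPR_1G2, all 9 among the 10, which is 62.5% and 56.2% against 10.8% and 14.9% of all genes. Under spike-in scaling the cell cycle counts were 2 lower and 2 higher in parental, with a median of -0.21, and 8 lower and 2 higher in CRISPR_1G2, with a median of -0.31. The repair counts under it were 1 lower and 2 higher in parental and 5 lower and 2 higher in CRISPR_1G2, with medians of -0.07 and -0.18. Without CRISPR_1G2 1 the cell cycle counts were 8 in parental and 6 in CRISPR_1G2, without CRISPR_1G2 2 they were 8 and 9, and without parental 2 the parental count was 14. The repair counts were 3 in parental without either of CRISPR_1G2 1 and 2, 4 without parental 2, and 5 in CRISPR_1G2 without either of its dated libraries.

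Tubulin genes were lower too. Tubb5, a main beta-tubulin gene, stood at 1205 and 1515 CPM in the dated parental libraries and 240 CPM in parental 3, at 1388 and 1268 against 153 CPM in CRISPR_1G2, and at 1557 and 1307 against 1503 CPM in KO_1E7. It fell by 2.5 ± 0.21 (adjusted p = 0.00349) and by 3.12 ± 0.22 (adjusted p = 0.000914). Of 15 tubulin genes, 8 fell in parental (53.3%, against 10.8% of all genes) and 10 in CRISPR_1G2 (66.7%, against 14.9%), with medians of -1.08 and -1.81, and 1 rose in CRISPR_1G2. The exception was Tubg2, which encodes a gamma-tubulin of the microtubule organising centre. Tuba1b, an alpha-tubulin gene, fell by 1.63 ± 0.27 and 2.5 ± 0.28. Without CRISPR_1G2 1 or CRISPR_1G2 2 the parental count was 4, without parental 2 it was 5, and under spike-in scaling it was 4.

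Cholesterol synthesis and uptake had the lowest median in both lines among the lists in the plot of list medians. Of 26 genes, 24 fell in parental (92.3%, against 10.8% of all genes) and 25 in CRISPR_1G2 (96.2%, against 14.9%), with 24 in both, 0 higher, and medians of -2.12 and -2.49. KO_1E7 had a median of 0.13, and its difference was higher than the mean of the other 2 for 24 genes, against 6.96% of all genes.

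Single steps of the pathway are given by library. Fdft1, squalene synthase, went from 120 and 205 to 28.9 CPM in parental and from 232 and 227 to 18.7 CPM in CRISPR_1G2, and stood at 291 and 222 against 272 CPM in KO_1E7. Fdft1 fell by 2.49 ± 0.37 (adjusted p = 0.0124) and by 3.62 ± 0.39 (adjusted p = 0.00265). Nsdhl, a later sterol enzyme, went from 52.9 and 114 to 5.37 CPM and from 119 and 130 to 5.34 CPM, and stayed at 85.6, 85.2 and 91.9 CPM in KO_1E7. Nsdhl fell by 3.96 ± 0.53 (adjusted p = 0.0117) and by 4.54 ± 0.54 (adjusted p = 0.00396), the widest fall of the genes given from this list. Srebf2, the gene for the pathway's transcription factor, fell by 1.01 ± 0.18 and 1.30 ± 0.18. The gene that was called in neither line was Insig2, a brake on the pathway, at 37.0, 40.4 and 34.1 CPM in parental and 43.3, 43.3 and 52.7 CPM in CRISPR_1G2. Without CRISPR_1G2 1 or CRISPR_1G2 2 the parental count was 10, and the dated parental libraries themselves differed in these genes, parental 2 being the higher in each gene given here.

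Fatty acid synthesis followed, with 11 of 15 genes lower in each line, the same 11 in both, and 1 higher, which is 73.3% lower against 10.8% and 14.9% of all genes. The desaturase genes Scd2 and Fads2 fell by 2.12 ± 0.27 and 2.35 ± 0.28 in parental and by 2.64 ± 0.28 and 2.76 ± 0.28 in CRISPR_1G2. Scd2 stood at 1721 and 2690 CPM in the dated parental libraries and 506 CPM in parental 3, at 2937 and 2802 against 461 CPM in CRISPR_1G2, and at 2396 and 2309 against 2647 CPM in KO_1E7. The gene that rose was Gpam, which starts triglyceride assembly, from 27.2 and 25.2 to 40.7 CPM in parental and from 22.8 and 20.1 to 61.2 CPM in CRISPR_1G2. Its rise was 0.63 ± 0.15 (adjusted p = 0.0286) and 1.51 ± 0.14 (adjusted p = 0.00166). The parental count was 5 without CRISPR_1G2 1 or CRISPR_1G2 2, and the CRISPR_1G2 count was 6 and 7 without them. Under spike-in scaling 6 and 7 were lower.

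**Figure D4:**
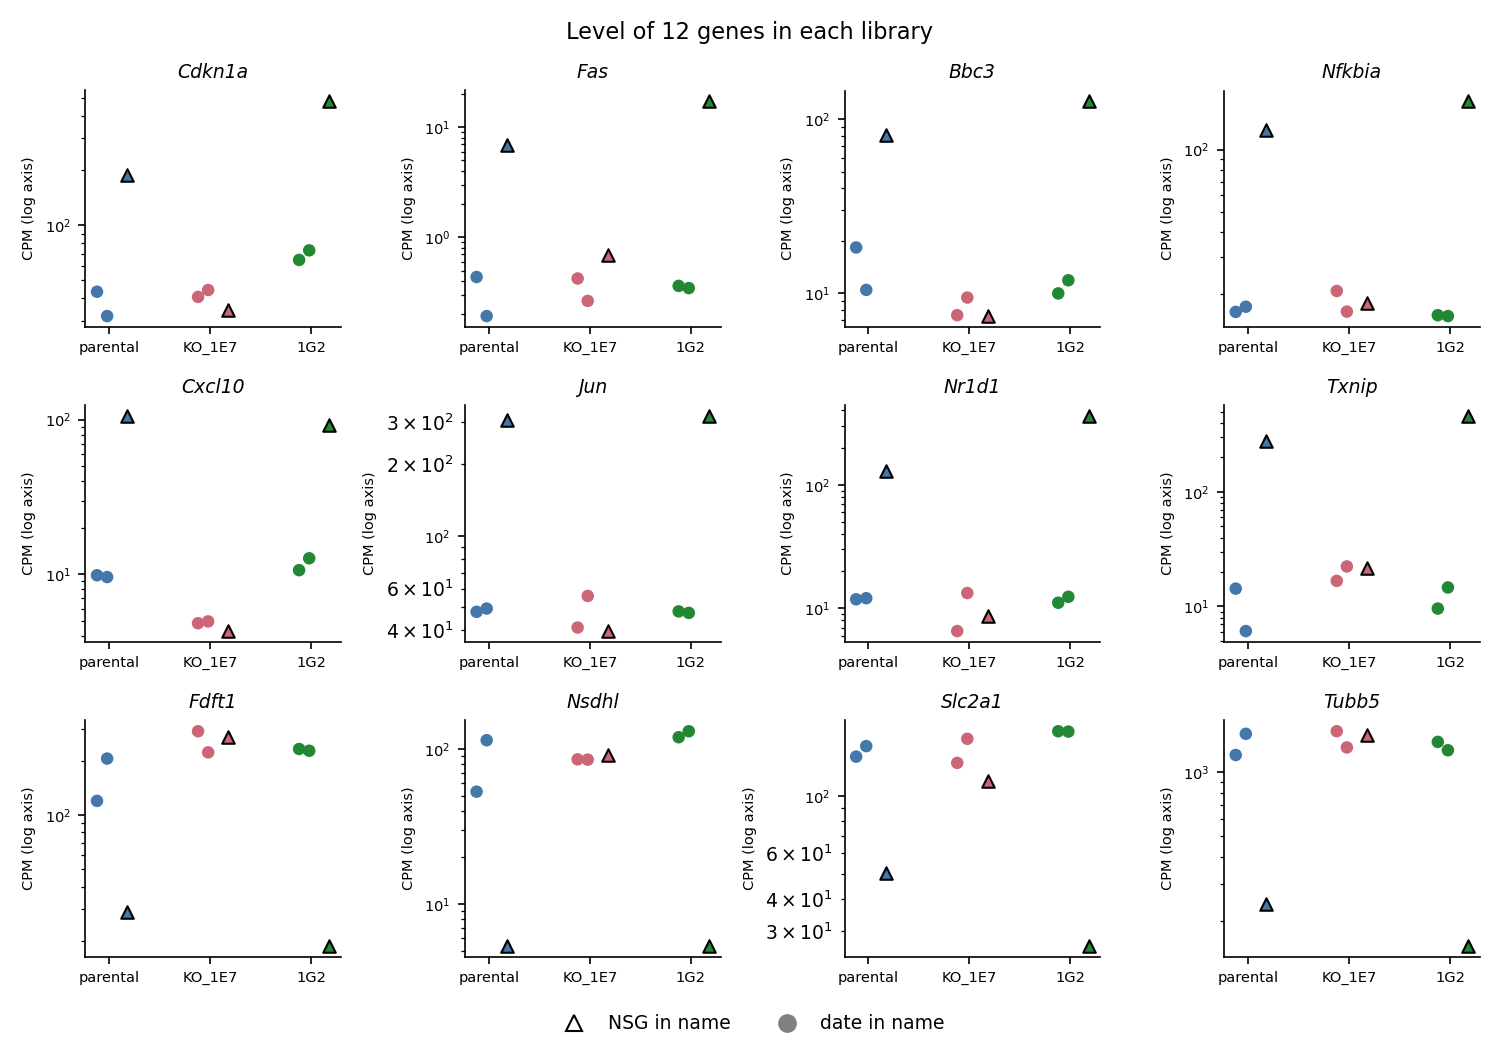
Each panel gives the level of 1 gene in CPM on a logarithmic axis for the 9 libraries, by line, with triangles for NSG-named and circles for dated libraries. In parental and CRISPR_1G2 (marked 1G2) the triangle lies above both circles for the first 8 genes and below both for the last 4, such as Cdkn1a at 189 and 480 CPM and Fdft1 at 28.9 and 18.7 CPM; in KO_1E7 it lies near the circles for most genes.

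Glycolysis and hypoxia genes were lower in the NSG-named libraries of parental and CRISPR_1G2, 15 and 18 of 33 by the test (45.5% and 54.5%, against 10.8% and 14.9% of all genes), 13 of them in both. Under spike-in scaling 2 and 9 were lower, with medians of -0.38 and -0.84. The medians as reported were -1.07 and -1.29, and -0.23 in KO_1E7. Slc2a1, the main glucose transporter gene, stood at 142 and 156 CPM in the dated parental libraries and 50.3 CPM in parental 3. It stood at 178 and 177 against 26.3 CPM in CRISPR_1G2 and at 134 and 166 against 114 CPM in KO_1E7. Slc2a1 fell by 1.56 ± 0.17 (adjusted p = 0.00733) and by 2.75 ± 0.19 (adjusted p = 0.000914), and in KO_1E7 it was -0.40 ± 0.16 (adjusted p = 1). Pfkl, a phosphofructokinase gene, went from 136 and 254 to 37.9 CPM and from 268 and 254 to 37.5 CPM (fell by 2.36 ± 0.38 and 2.80 ± 0.39). Enzymes of later steps fell less, Aldoa by 1.14 ± 0.20 and 1.72 ± 0.21 and Ldha by 1.09 ± 0.26 and 1.36 ± 0.26. The member that rose was Pfkfb3, which makes the activator of phosphofructokinase, from 15.6 and 10.2 to 27.2 CPM and from 12.8 and 12 to 34.3 CPM (1.08 ± 0.25 and 1.46 ± 0.25). Vegfa, the best known angiogenic target of hypoxia, was called in neither line, with 968, 665 and 721 CPM in parental and 813, 867 and 792 CPM in CRISPR_1G2. Txnip, a glucose-responsive inhibitor of glucose uptake, was among the widest rises, from 14.3 and 6.1 to 281 CPM and from 9.59 and 14.7 to 458 CPM, against 16.7, 22.4 and 21.5 CPM in KO_1E7 (4.78 ± 0.50, adjusted p = 0.00834, and 5.24 ± 0.51, adjusted p = 0.00258). Without CRISPR_1G2 1 or CRISPR_1G2 2 the count of lower genes was 2 in parental, and 8 or 10 in CRISPR_1G2; without parental 2 the parental count was 9.

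Chaperones of the endoplasmic reticulum, which fold secreted proteins, are co-regulated through a promoter element, and some of these promoters are shown because members that share it split in these libraries. The element is CCAAT, any 9 bases, then CCACG, searched on both strands in the 250 bases before the start site of 1 RefSeq window per gene (build GRCm38.p6). It was found in 8 of the 19 chaperone genes with a window, out of 21 tested, and in 0.122% of 27025 windows. It includes a CCAAT box, which alone was found in 34.5% of all windows. Among genes with a window, the box was found in 17 of 19 chaperone, 16 of 18 cholesterol and 11 of 15 circadian clock genes. The NF-kappaB and interferon lists had it in 33.3% and 35.3%. Matches are in capitals, and positions are chr2:34771840-34772089 on the plus strand for Hspa5, chr10:86705445-86705694 on the minus strand for Hsp90b1, chr12:17266339-17266588 on the plus strand for Pdia6 and chr15:88819396-88819645 on the plus strand for Creld2.
Hspa5: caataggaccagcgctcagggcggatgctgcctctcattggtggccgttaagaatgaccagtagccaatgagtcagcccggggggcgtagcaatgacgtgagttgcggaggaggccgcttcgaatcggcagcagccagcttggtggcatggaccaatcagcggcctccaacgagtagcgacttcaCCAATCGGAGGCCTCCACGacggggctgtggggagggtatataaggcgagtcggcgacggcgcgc
Hsp90b1: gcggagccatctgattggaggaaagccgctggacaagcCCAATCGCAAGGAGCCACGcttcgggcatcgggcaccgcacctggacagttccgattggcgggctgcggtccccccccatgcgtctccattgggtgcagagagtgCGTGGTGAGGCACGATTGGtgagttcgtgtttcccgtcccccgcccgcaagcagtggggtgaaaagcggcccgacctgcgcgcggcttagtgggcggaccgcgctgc
Pdia6: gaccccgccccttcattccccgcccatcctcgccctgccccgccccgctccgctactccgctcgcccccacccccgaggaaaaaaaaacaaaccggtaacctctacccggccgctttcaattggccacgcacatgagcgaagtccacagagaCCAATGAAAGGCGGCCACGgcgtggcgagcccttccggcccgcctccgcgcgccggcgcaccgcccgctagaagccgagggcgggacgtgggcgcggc
Creld2: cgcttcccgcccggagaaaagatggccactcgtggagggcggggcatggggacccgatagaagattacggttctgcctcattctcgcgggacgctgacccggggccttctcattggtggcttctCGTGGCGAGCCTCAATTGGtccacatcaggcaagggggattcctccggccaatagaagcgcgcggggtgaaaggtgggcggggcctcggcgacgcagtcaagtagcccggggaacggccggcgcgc

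Of the 21 chaperone genes, 12 fell in parental (57.1%, against 10.8% of all genes) and 16 in CRISPR_1G2 (76.2%, against 14.9%), 11 in both, and 0 rose. The medians were -0.97, -1.11 and, in KO_1E7, 0.01. Pdia6, a disulfide isomerase gene, stood at 537 and 807 CPM in the dated parental libraries and 206 CPM in parental 3, at 763 and 733 against 182 CPM in CRISPR_1G2, and at 973 and 928 against 929 CPM in KO_1E7. Pdia6 fell by 1.70 ± 0.25 (adjusted p = 0.0102) and by 2.04 ± 0.25 (adjusted p = 0.00269). Hsp90b1, the gene of the chaperone GRP94, fell by 1.13 ± 0.23 and 1.48 ± 0.23, and Creld2, a stress-induced folding factor gene, by 1.64 ± 0.35 and 1.84 ± 0.35. Hspa5, the gene of the master chaperone BiP, holds the same element and was not called: it stood at 2028, 2432 and 2339 CPM in parental and 2654, 2339 and 2169 CPM in CRISPR_1G2, with log2 fold changes of 0.07 ± 0.16 and -0.20 ± 0.16. The cytosolic chaperone gene Hspa8 fell by 2.63 ± 0.54 and 3.33 ± 0.57, from 1379 and 2709 to 331 CPM and from 2580 and 2197 to 238 CPM. Its parental call was lost without parental 2, CRISPR_1G2 1 or CRISPR_1G2 2. Of 15 heat shock response genes, only 4 fell in parental (26.7%) and 5 in CRISPR_1G2 (33.3%), against the same 10.8% and 14.9%, and 0 rose. Their medians were -0.39 and -0.37, and 0.30 and 0.08 under spike-in scaling. Under spike-in scaling 3 chaperone genes were lower and 1 higher in parental, and 7 lower and 1 higher in CRISPR_1G2, with medians of -0.28 and -0.66. Without CRISPR_1G2 1 or CRISPR_1G2 2 the chaperone count was 4 in parental and 6 or 8 in CRISPR_1G2.

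About as many NF-kappaB target genes rose as did not. Of 16 tested, 8 rose (50%, against 6.65% of all genes) and 1 fell (6.25%, against 10.8%) in parental. In CRISPR_1G2 9 rose (56.2%, against 14.6%) and 2 fell (12.5%, against 14.9%), and 8 rose in both lines. Nfkbia, the inhibitor gene, stood at 16.3 and 17.3 CPM in the dated parental libraries and 124 CPM in parental 3, at 15.7 and 15.5 against 172 CPM in CRISPR_1G2, and at 20.6 and 16.3 against 18.0 CPM in KO_1E7. Nfkbia rose by 2.89 ± 0.16 (adjusted p = 0.00129) and by 3.46 ± 0.16 (adjusted p = 0.000465). Tnfaip3, which encodes the inhibitor A20, went from 4.48 and 4.31 to 53.4 CPM and from 4.90 and 5.45 to 76.1 CPM, and from 5.37 and 5.02 to 7.61 CPM in KO_1E7. It rose by 3.60 ± 0.15 (adjusted p = 0.000492) and by 3.88 ± 0.15 (adjusted p = 0.000372), and had 0.55 ± 0.16 in KO_1E7 (adjusted p = 1). Relb, a subunit gene, and Traf1, a receptor adaptor gene, rose by 2.06 ± 0.16 and 3.62 ± 0.36 in parental and by 2.46 ± 0.16 and 2.95 ± 0.35 in CRISPR_1G2. Bcl2l1, which encodes the survival protein BCL-XL and is counted among these targets, fell in both lines, by 0.71 ± 0.18 and 1.61 ± 0.19. The promoters of both inhibitor genes are shown with the kappaB site (GGG, any 2 bases, then TTTCC), or its reverse complement, in capitals; it was found in 3 of the 12 list members with a window and in 1.4% of all windows. Nfkbia lies at chr12:55492648-55492897 and Tnfaip3 at chr10:19015411-19015660, both on the minus strand.
Nfkbia: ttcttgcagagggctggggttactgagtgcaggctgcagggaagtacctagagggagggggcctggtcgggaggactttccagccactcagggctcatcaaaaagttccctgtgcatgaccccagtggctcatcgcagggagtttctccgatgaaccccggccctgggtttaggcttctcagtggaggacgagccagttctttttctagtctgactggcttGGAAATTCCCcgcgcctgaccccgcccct
Tnfaip3: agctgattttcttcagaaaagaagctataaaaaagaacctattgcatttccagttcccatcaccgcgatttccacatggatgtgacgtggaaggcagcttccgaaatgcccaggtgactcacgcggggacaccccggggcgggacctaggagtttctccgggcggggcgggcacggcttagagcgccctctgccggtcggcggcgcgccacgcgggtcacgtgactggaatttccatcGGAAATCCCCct

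Of 19 chemokine and cytokine genes, 8 rose in parental (42.1%, against 6.65% of all genes) and 9 in CRISPR_1G2 (47.4%, against 14.6%), the 8 being among the 9, and 2 fell in CRISPR_1G2. Cxcl10, a chemokine gene that attracts T cells, stood at 9.86 and 9.61 CPM in the dated parental libraries and 105 CPM in parental 3. It stood at 10.6 and 12.7 against 92 CPM in CRISPR_1G2 and at 4.83 and 4.96 against 4.30 CPM in KO_1E7. Cxcl10 rose by 3.43 ± 0.15 (adjusted p = 0.000492) and by 2.98 ± 0.15 (adjusted p = 0.000515). Ccl5, another T cell attractant, rose by 2.63 ± 0.22 and 2.25 ± 0.22, from 5.44 and 4.64 to 31.2 CPM and from 4.32 and 4.57 to 21.2 CPM. In KO_1E7 Ccl5 went the other way without passing, at 3.53, 4.47 and 1.49 CPM (-1.43 ± 0.27, adjusted p = 1). Csf1, the macrophage growth factor gene, rose by 1.42 ± 0.15 in each line. Without parental 2 the parental count was 5, and under spike-in scaling 13.

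Immediate early genes, the fast responders to growth signals and stress, did not move as a block. Of 23, 11 rose (47.8%, against 6.65% of all genes) and 1 fell (4.35%, against 10.8%) in parental. In CRISPR_1G2 9 rose (39.1%, against 14.6%) and 4 fell (17.4%, against 14.9%). Jun stood at 47.9 and 49.4 CPM in the dated parental libraries and 307 CPM in parental 3, at 48.1 and 47.4 against 318 CPM in CRISPR_1G2, and at 41.1 and 55.8 against 39.8 CPM in KO_1E7. Jun rose by 2.66 ± 0.18 (adjusted p = 0.00237) and by 2.73 ± 0.18 (adjusted p = 0.000914), and its partner gene Fosl2 by 1.99 ± 0.19 and 2.33 ± 0.19. Fos, the classical partner, fell from 98.1 and 108 to 54.2 CPM and from 158 and 151 to 34.3 CPM, by 0.93 ± 0.13 (adjusted p = 0.00979) and 2.2 ± 0.14 (adjusted p = 0.000914), whereas KO_1E7 had 66.9, 70.1 and 113 CPM. Dusp6 and Etv4, which follow ERK activity, fell with Fos, by 0.99 ± 0.15 and 0.95 ± 0.16 in parental and 2.35 ± 0.16 and 1.79 ± 0.17 in CRISPR_1G2. Among 20 ERK pathway feedback genes, however, 4 rose and 2 fell in parental (20% and 10%, against 6.65% and 10.8% of all genes). In CRISPR_1G2, 1 of these rose and 6 fell (5% and 30%, against 14.6% and 14.9%). Targets of the YAP coactivator rose in 6 of 17 genes in parental (35.3%) and 11 in CRISPR_1G2 (64.7%), against the same 6.65% and 14.6%. Its best known target Ctgf was lower in the NSG-named library of both lines, by 1.18 ± 0.31 and 1.48 ± 0.31. The CRISPR_1G2 call of Ctgf was lost without CRISPR_1G2 1 or CRISPR_1G2 2. Without CRISPR_1G2 1 or CRISPR_1G2 2, 3 and 4 immediate early genes rose in CRISPR_1G2, and YAP targets rose in 3 genes in parental and 5 and 4 in CRISPR_1G2; without parental 2, 3 YAP targets rose in parental. Under spike-in scaling 18 immediate early genes and 14 YAP targets rose in parental.

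Interferon-stimulated genes, which cells switch on against viruses, rose in part of the list, and the difference between lines was not tested for the list. Of 45 tested, 21 rose in parental (46.7%, against 6.65% of all genes) and 7 in CRISPR_1G2 (15.6%, against 14.6%, which is near the background), 5 of them in both, with medians of 1.62, 0.70 and, in KO_1E7, -0.30. The parental count depended on 1 library: without parental 2 it was 1, and without parental 1 it was 21. Without CRISPR_1G2 1 the count was 13 in parental and 1 in CRISPR_1G2, and under spike-in scaling 39 and 14. Isg15, an antiviral ubiquitin-like modifier, stood at 15.7 and 9.72 CPM in the dated parental libraries and 44.1 CPM in parental 3, at 5.92 and 9.30 against 9.40 CPM in CRISPR_1G2, and at 5.99 and 6.04 against 5.01 CPM in KO_1E7. Isg15 rose by 1.80 ± 0.33 in parental (adjusted p = 0.0169), and had 0.30 ± 0.35 in CRISPR_1G2 (adjusted p = 0.553). The antiviral gene Ifit1 rose by 1.12 ± 0.27 (adjusted p = 0.0315) and 0.98 ± 0.27 (adjusted p = 0.0362), from 15.5 and 13.8 to 31.9 CPM and from 5.19 and 7.88 to 12.9 CPM. Mx2, a GTPase gene that blocks viruses, was at 1.86, 1.27 and 9.17 CPM in parental, 0.537, 0.682 and 0.119 CPM in KO_1E7 and 0.981, 1.83 and 3.72 CPM in CRISPR_1G2. Family members such as the Ifit, Oas and Gbp genes have close copies, so their counts can be shared between copies and are uncertain gene by gene. The interferon-stimulated response element (GAAA, any 2 bases, then GAAA) was found on either strand in 17 of the 34 list members with a window (50%) and in 3.04% of all windows, and overlapping matches merge into longer capitals. Isg15 lies at chr4:156200819-156201068 on the minus strand and Ifit1 at chr19:34640639-34640888 on the plus strand.
Isg15: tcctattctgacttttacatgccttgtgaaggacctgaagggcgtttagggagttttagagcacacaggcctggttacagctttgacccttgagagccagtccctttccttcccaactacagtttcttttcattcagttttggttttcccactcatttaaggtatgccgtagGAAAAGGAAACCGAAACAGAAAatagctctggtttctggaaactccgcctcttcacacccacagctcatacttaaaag
Ifit1: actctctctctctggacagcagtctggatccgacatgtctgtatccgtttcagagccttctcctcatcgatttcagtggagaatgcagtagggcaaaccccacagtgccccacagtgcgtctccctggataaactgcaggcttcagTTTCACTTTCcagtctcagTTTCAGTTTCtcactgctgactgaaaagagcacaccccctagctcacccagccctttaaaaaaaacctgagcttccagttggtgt

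Genes of the 2-cell embryo, a set that a small share of cultured mouse embryonic stem cells switch on, were higher in parental 3 and CRISPR_1G2 3. Zscan4c, a marker of that state, had 2, 0 and 80 counts in parental 1 to 3, 0, 1 and 1 in KO_1E7, and 18, 37 and 154 in CRISPR_1G2. Zfp352, another marker, had 4, 1 and 112 counts in parental, 4, 0 and 2 in KO_1E7, and 14, 20 and 180 in CRISPR_1G2. The NSG-named library was above both dated ones in parental and CRISPR_1G2 for both genes and near 0 in KO_1E7. Zfp352 rose by 5.43 ± 0.88 in parental (adjusted p = 0.0128) and 3.26 ± 0.71 in CRISPR_1G2 (adjusted p = 0.0157). The summed level of the 29 genes of this list was 3.96, 1.88 and 33.7 CPM in parental, 1.13, 1.72 and 1.25 CPM in KO_1E7, and 9.62, 12.8 and 74.7 CPM in CRISPR_1G2. Of the 29, 18 passed the expression filter and 14 would pass on the dated libraries alone; of those 14, 12 rose in parental and 11 in CRISPR_1G2. The list was chosen after its values were seen, and most members are near-identical copies between which reads cannot be told apart. Over the 18 the counts were 16 in parental (88.9%, against 6.65% of all genes) and 15 in CRISPR_1G2 (83.3%, against 14.6%). The parental count was 6 without parental 2 and 9 without CRISPR_1G2 1 or CRISPR_1G2 2. The CRISPR_1G2 count was 3 without either of its dated libraries.

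Circadian clock genes rose in 12 of 18 cases in CRISPR_1G2 3 (66.7%, against 14.6% of all genes) and in 4 in parental 3 (22.2%, against 6.65%). The difference between the lines was not tested for the list, which was also chosen after its values were seen, and 17 of the 18 would pass the filter on the dated libraries alone. Nr1d1, a repressor at the core of the clock, stood at 11.9 and 12.1 CPM in the dated parental libraries and 129 CPM in parental 3. It stood at 11.1 and 12.4 against 359 CPM in CRISPR_1G2 and at 6.56 and 13.3 against 8.75 CPM in KO_1E7. Nr1d1 rose by 3.43 ± 0.35 (adjusted p = 0.00789) and by 4.93 ± 0.37 (adjusted p = 0.00151). Per1, a negative arm gene, rose by 1.98 ± 0.14 and 2.80 ± 0.14, from 13.9 and 15.0 to 56.8 CPM and from 15.4 and 14.4 to 104 CPM. Dbp, an output gene of the clock, was at 2.98, 3.51 and 7.70 CPM in parental and rose in CRISPR_1G2 from 2.03 and 2.84 to 27.7 CPM (3.50 ± 0.43, adjusted p = 0.0027). The activator Clock was called in neither line, at 163, 155 and 157 CPM and 164, 173 and 205 CPM. Without CRISPR_1G2 1 or CRISPR_1G2 2 the counts were 2 in parental and 5 in CRISPR_1G2, without parental 2 the parental count was 2, and under spike-in scaling 12.

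Parental 3 and CRISPR_1G2 3 parted in RNA classes that mostly lack a poly(A) tail. The CRISPR_1G2 difference was lower than the parental one in 23 genes (0.146%) and higher in 0, and these include 13 histone genes besides ribosomal and small structural RNAs. That count was 8 without parental 1, 0 without CRISPR_1G2 1 or CRISPR_1G2 2, and 52 without KO_1E7 1 or KO_1E7 2, and 0 when only protein-coding genes without histone genes were tested, where DESeq2 on all genes called 127. In parental 39 of 49 histone genes rose (79.6%, against 6.65% of all genes) and 0 fell, and in CRISPR_1G2 30 fell (61.2%, against 14.9%) and 0 rose. The medians were 2.43, 0.73 in KO_1E7 and -1.64 in CRISPR_1G2. Hist1h1e, a linker histone gene, stood at 3.01, 4.28 and 57.0 CPM in parental, at 3.98, 3.45 and 8.24 CPM in KO_1E7 and at 6.28, 6.56 and 3.05 CPM in CRISPR_1G2. Hist1h1e rose by 3.97 ± 0.24 in parental (adjusted p = 0.00178) and fell by 1.07 ± 0.27 in CRISPR_1G2 (adjusted p = 0.0253). Hist2h2ac, a core histone gene, rose by 2.88 ± 0.35 in parental and fell by 3.14 ± 0.47 in CRISPR_1G2. Histone genes are close copies of each other, and the CRISPR_1G2 count was 12 and 7 without CRISPR_1G2 1 and CRISPR_1G2 2 and 19 under spike-in scaling.

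The RNA component genes Rmrp and Rpph1, of ribonucleases that process other RNAs, and Rn7sk, of the complex that holds back transcription elongation, were high in parental 3 alone among the 9 libraries. Rmrp stood at 5.68, 11.6 and 352 CPM in parental, at 12.3, 6.23 and 12.8 CPM in KO_1E7 and at 16.6, 23.7 and 11.0 CPM in CRISPR_1G2 (rise in parental 5.34 ± 0.54, adjusted p = 0.0081). Rpph1 rose by 6.15 ± 0.59 and Rn7sk by 3.86 ± 0.39. Of 7 such small structural and mitochondrial ribosomal RNAs tested, 7 rose in parental (100%, against 6.65% of all genes). In CRISPR_1G2, 1 fell (14.3%, against 14.9%, which is near the background). CT010467.1, the transcript that holds most of the ribosomal RNA related counts, stood at 4555, 6984 and 175905 CPM in parental and at 7650, 10418 and 5726 CPM in CRISPR_1G2. The ribosomal, histone and small structural RNAs moved together in parental 3, and their part in the other differences was not tested. Leaving out the ribosomal RNA related transcripts changed 0 of the 86 parental calls of named genes that were refitted.

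**Figure D5:**
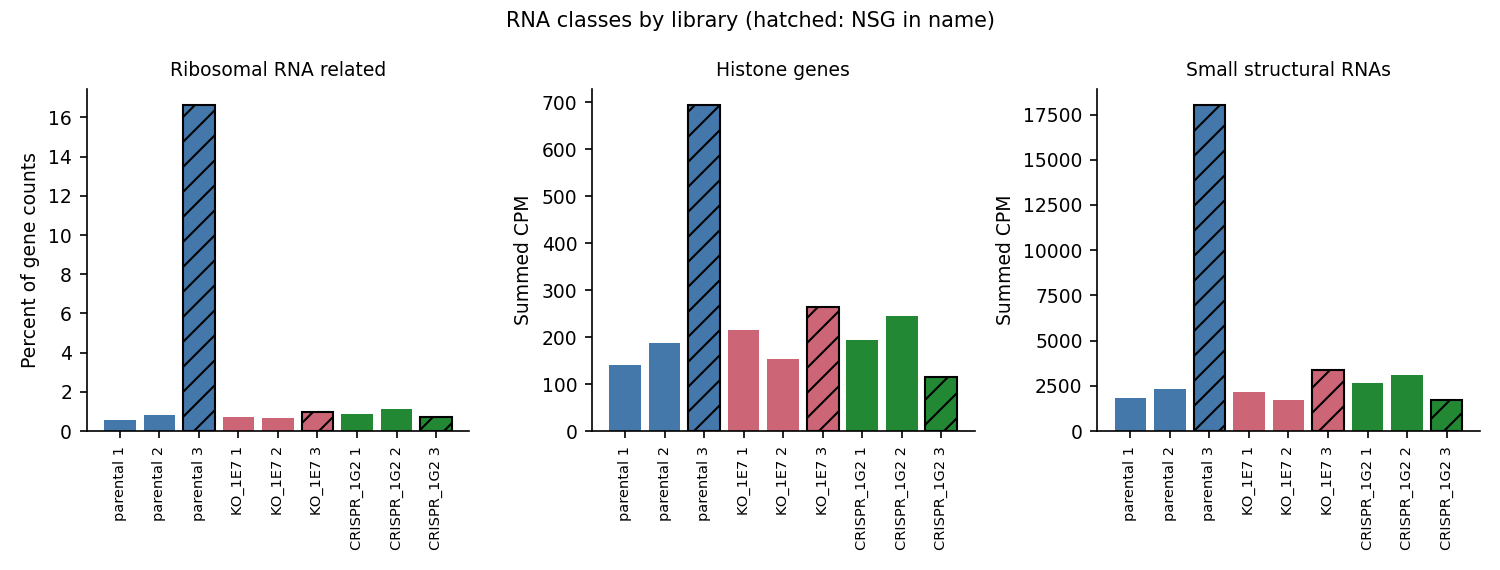
Bars give, for each library, the percent of gene counts on ribosomal RNA related transcripts (left), the summed CPM of histone genes (middle) and that of small structural RNAs (right), with hatched bars for NSG-named libraries and colours by line. Parental 3 is the tallest bar in each panel, at 16.6% on the left, and CRISPR_1G2 3 is the lowest of its line in each.

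Markers of other cells are given by their sums. Summed levels of macrophage markers were lowest in the NSG-named library of each line, at 60.6, 56.1 and 34.4 CPM in parental, 66.0, 73.0 and 58.4 CPM in KO_1E7 and 95.1, 87.7 and 53.6 CPM in CRISPR_1G2. Of 8 macrophage markers tested, 1 fell in parental (12.5%, against 10.8% of all genes). In CRISPR_1G2, 1 rose and 1 fell (12.5% each, against 14.6% and 14.9%), so these counts were near the background. Their part in the other differences was not tested. The summed level of 8 neutrophil markers was 33.9, 0.607 and 0.973 CPM in parental 1 to 3, 49.5, 49.8 and 40.4 CPM in KO_1E7, and 62.5, 38 and 38.3 CPM in CRISPR_1G2, so it was lowest in parental 2 and parental 3. Summed levels of 10 leukocyte markers were 6.81 to 28.8 CPM in the NSG-named and 2.51 to 23 CPM in the dated libraries, and 0 of the 10 leukocyte and 0 of the 8 neutrophil markers were called in any line. Without parental 2, however, 6 neutrophil and 5 leukocyte markers were called lower in parental 3, since parental 1 held most of that signal. Hemoglobin and other erythroid markers summed to between 0.820 and 1.95 CPM everywhere. Krt8, a keratin gene of ductal cells, fell by 1.16 ± 0.23 in parental and 1.80 ± 0.24 in CRISPR_1G2, from 919 and 978 to 424 CPM and from 793 and 937 to 248 CPM. Vim, the mesenchymal filament gene, fell as well, by 1.85 ± 0.36 and 2.26 ± 0.37. Among 23 epithelial markers, 2 rose and 2 fell in parental (8.7% each, against 6.65% and 10.8% of all genes). In CRISPR_1G2, 2 rose and 3 fell (8.7% and 13%, against 14.6% and 14.9%). Among 16 mesenchymal markers, 1 rose and 3 fell in parental (6.25% and 18.8%), and 2 rose and 3 fell in CRISPR_1G2 (12.5% and 18.8%). Median log2 fold changes were 0.06 and -0.12 for the epithelial and 0.21 and 0.36 for the mesenchymal list. In bulk samples, fewer cells of a type and less RNA per cell cannot be told apart.

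For the contrast of KO_1E7 with the other 2 lines, the widest positive departures among genes with a mean of at least 1 CPM were Gm22935, Nsdhl, Prss22, Gamt, Adam11 and Angpt1, and the widest negative ones Txnip, Notch3, Nr1d1, Mx2, Gdf15 and Scml4. Gamt, an enzyme gene of creatine synthesis, stood at 4.54, 5.80 and 0.890 CPM in parental, at 7.46, 5.02 and 7.79 CPM in KO_1E7 and at 5.81, 4.82 and 0.183 CPM in CRISPR_1G2. Its difference in KO_1E7 exceeded the mean of the others by 4.01 ± 0.45 on the log2 scale (adjusted p = 0.0122). Notch3, a receptor gene of cell-to-cell signalling, stood at 0.355, 0.276 and 4.25 CPM in parental, at 0.480, 0.398 and 0.269 CPM in KO_1E7 and at 0.617, 1.13 and 13.3 CPM in CRISPR_1G2 (-4.52 ± 0.63, adjusted p = 0.0139). In both genes KO_1E7 was level and the other lines moved. Of the 12 genes, 0 kept the call without CRISPR_1G2 1 or without CRISPR_1G2 2. Without CRISPR_1G2 3, where KO_1E7 is set against parental alone, 0 of the 12 were called.

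KO_1E7 3 had a few departures from its dated libraries, none called. They are the ones with the lowest unadjusted p in that line and were chosen after their values were seen. No condition was set on the other lines. Dhrs3, a gene that limits retinoic acid, stood at 0.904, 0.720 and 8.51 CPM in KO_1E7 1 to 3 (3.39 ± 0.52, adjusted p = 1). The collagen gene Col1a1 stood at 9.81, 10.2 and 3.31 CPM (-1.60 ± 0.25, adjusted p = 1), and Hey1, a Notch target gene, at 1.72, 1.48 and 5.94 CPM (1.89 ± 0.33, adjusted p = 1). In each of these KO_1E7 3 lay outside the range of its dated libraries by far more than their gap. Igf2, an imprinted growth factor gene also chosen after its values were seen, was low in KO_1E7 1 and KO_1E7 3 at 5.54 and 2.81 CPM and higher in KO_1E7 2 at 80.7 CPM, against 189 to 344 CPM in the other lines, so within KO_1E7 the dated libraries differed more from each other than KO_1E7 3 did from KO_1E7 1.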

How the data were processed

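The authors deposited a table of raw counts per gene for 9 mouse RNA-seq libraries, made from oligo-dT-selected RNA per the labels' protocols. The kit keeps no strand information, so reads of a gene and of an antisense partner cannot be told apart. Reads were processed with bcl2fastq 2.17, STAR 2.5.2b, featureCounts (Subread 1.5.2) and DESeq2 on GRCm38, per the submitters' processing notes. The table holds 49671 genes and 92 spike-in controls, and gene counts per library run from 27898705 to 51878289.

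Genes passing edgeR's expression filter (minimum count 10, minimum total 15, by line) numbered 15766, of which 15484 would pass on the dated libraries alone. TMM-scaled counts were fitted with edgeR 4.0.16 (R 4.3.3, robust quasi-likelihood, Benjamini-Hochberg adjustment over all genes, threshold 0.05). The comparison over lines had the line as a block and 5 residual degrees of freedom. Differences within lines and between them came from 1 fit with 3 residual degrees of freedom. CPM values are TMM-scaled, and ± gives the SE of a log2 fold change. The tests were checked on simulated data. No pair of same-line libraries agreed within sampling noise.

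Members and lists were chosen with earlier results of these data known, and the 2-cell, clock, tubulin, iron, small structural RNA, VIP receptor and histone lists after their values were seen. The rule for genes given was the 4 members of lowest p per list, all members of the p53, cholesterol, interferon and cell cycle lists, and the 6 widest departures of KO_1E7 in each direction with a mean of at least 1 CPM; of the full lists only part is printed, and others were chosen after their values were seen. Alternatives were DESeq2 1.42.0, its size factors in edgeR, spike-in scaling, no expression filter, non-robust dispersion, removal of ribosomal RNA related transcripts, no line term, leaving out each library or line, and, added after seeing the data, protein-coding genes without histone genes. Promoters are RefSeq windows of build GRCm38.p6.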

Additional observations from a re-analysis of the deposited data

Results flagged for a closer look

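Spike-in controls took 0.820% of counts in KO_1E7 1, which stood apart from the other 5 dated libraries by its gap relative to their whole range; chance alone marks about 1 in 20 such groups.

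The difference between NSG-named and dated libraries was not the same in all lines. The 3 differences were not all equal in 745 genes, KO_1E7 departed from the mean of the other lines in 1751, and CRISPR_1G2 departed from parental in 23. The question about KO_1E7 was raised with results of these data known. The genes with the widest departures of KO_1E7, as differences of log2 fold changes, were Gm22935 at 4.45, Nsdhl at 4.35, Prss22 at 4.13, Gamt at 4.01, Adam11 at 3.62 and Angpt1 at 3.49 in one direction. In the other direction they were Txnip at -4.87, Notch3 at -4.52, Nr1d1 at -4.38, Mx2 at -4.30, Gdf15 at -4.30 and Scml4 at -4.06. All 12 lost the call without CRISPR_1G2 1 and without CRISPR_1G2 2. They were also not called without CRISPR_1G2 3, where KO_1E7 is set against parental alone.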

How the results depend on the processing

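No paired analysis was possible because the NSG-named library is replicate 3 of every line, so the groups compared share no replicate number. The count over the 3 lines, 0 as reported, was 3048 with DESeq2, 6536 under spike-in scaling, 1584 without the expression filter, 6540 without the line KO_1E7, and 0 to 6065 when 1 library was left out. The parental count of 2753 was 5696 under spike-in scaling and 718 to 4116 with 1 library left out. The KO_1E7 count of 0 was 8 with DESeq2, 17 without the filter and 0 to 116 with 1 library left out, and the CRISPR_1G2 count of 4649 was 1294 to 5868. The F-test count of 745 was 2421 with DESeq2, 179 under spike-in scaling, 2638 without the filter and 0 to 1937 with 1 library left out. The KO_1E7 departure count of 1751 was 2783, 578 and 2758 in the same order, and 2 to 2881. The CRISPR_1G2 departure count of 23 was 127, 43 and 167, 0 to 52, and 0 for protein-coding genes without histone genes. Tigar in parental turned to 0.12 under spike-in scaling. Not every gene named above was followed through the alternatives, and Mki67 and Bcl2l1 are among those left out. Of the 87 parental and 86 CRISPR_1G2 calls followed, 74 and 79 held under spike-in scaling and 74 and 73 without the filter. With DESeq2 87 and 85 held, and without CRISPR_1G2 1 62 and 59 did. Under spike-in scaling the list medians of ribosomal proteins, heat shock, iron, mitochondrial mRNAs, oxidative phosphorylation and duct markers changed sign in both lines, and the glycolysis and hypoxia median in KO_1E7 went from -0.23 to 0.03. The cause of these shifts was not tested. With 1 NSG-named library per line, precision is limited by the number of libraries more than by depth.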

Other observations

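Of 20 NRF2 target and glutathione genes, 8 fell in parental 3 (40%, against 10.8% of all genes) and 9 in CRISPR_1G2 3 (45%, against 14.9%), where 3 rose (15%, against 14.6%). These lower counts were 3 in parental and 5 in CRISPR_1G2 without CRISPR_1G2 1 or CRISPR_1G2 2, and without parental 2 the parental count was 4. Under spike-in scaling 3 were lower and 3 higher in parental, where the median changed sign, from -0.46 to 0.24. In CRISPR_1G2 6 were lower and 4 higher under it, and the median went from -0.64 to -0.18. Among 13 mitochondrially encoded mRNAs 4 fell in parental (30.8%, against 10.8% of all genes) and 5 in CRISPR_1G2 (38.5%, against 14.9%). Under spike-in scaling 0 and 2 fell, with 4 higher in parental. The parental count was 0 without parental 2, CRISPR_1G2 1 or CRISPR_1G2 2, and the CRISPR_1G2 count was 2 without either of its dated libraries. For 33 ATF4 and amino acid response genes the shares called were at or below those of all genes, with 1 higher and 1 lower in parental and 4 higher in CRISPR_1G2.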
